A study of Mus musculus with 6 samples.

Results

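Endocardial cushion mesenchyme, the loose tissue from which the heart valves and septa are built, was picked out of a single-cell RNA dataset of the mouse heart-forming region by a rule on 9 genes, and 106 of 35962 cell barcodes met it. The members were chosen on their own counts: at least 5 UMIs of Postn, 2 of Sox9, 1 of Tbx20 and 1 of Twist1, with fewer than 3 of Dlx1 plus Dlx2, 2 of Pecam1, 5 of Tnnt2 and 3 of Epcam. A UMI (unique molecular identifier) stands for 1 captured RNA molecule. Barcodes had to show 2500 or more detected genes and no more than 10% mitochondrial UMIs, which left 35962 of 53362. The dataset covers C57BL/6 wild-type embryos at E10.5 (embryonic day, counted from the mating plug), dissected to the cardiogenic region, and the labels add that other mesoderm, ectoderm and endoderm came along. The mothers had received vehicle and had normal blood glucose (3 samples) or had received streptozotocin and were hyperglycemic (3 samples), and the fathers were normal glycemic in both groups. Streptozotocin kills the insulin-producing cells of the pancreas. The counts are pooled in 1 matrix whose barcodes carry a suffix from 1 to 6, called libraries 1 to 6 here, and no file used here ties a suffix to a sample. Vehicle and streptozotocin were therefore not compared, the matrix was treated as 1 sample, and no p-value is given.

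The cushions form in the outflow tract and the atrioventricular canal, where the heart muscle secretes a swollen matrix rich in hyaluronan and signals through BMP and TGF-beta ligands to the endocardium, the inner lining of the heart. Part of that lining then loses its cell contacts, invades the matrix and becomes mesenchyme, a process called endothelial-to-mesenchymal transition. Neural crest cells also enter the outflow cushions, and epicardium-derived cells enter the atrioventricular cushions later. Postn encodes periostin, a matrix protein of maturing cushions. Sox9 is a transcription factor of cushion and cartilage precursors, Tbx20 a T-box factor of the heart, and Twist1 a factor of migrating mesenchyme.

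The rule fixes the levels of its own genes, so these are given as a description only. Members had between 5 and 28 UMIs of Postn with a median of 8, a median of 10 UMIs of Sox9, 24 of Tbx20 and 23.5 of Twist1. The Postn minimum did most of the selecting: 690 further barcodes met every other criterion and missed only that one, against 98 that exceeded only the Pecam1 limit, 34 only the Tnnt2 limit, 21 that missed only Sox9, 20 only Tbx20, 3 only Dlx1 plus Dlx2, 1 only Twist1 and 1 only Epcam. Just inside the limit, 21 members had exactly 5 Postn UMIs. Just outside it, 25 barcodes had 4 and met every other criterion. Epicardium genes, described below, were abundant in 3 of the 21 and 14 of the 25. Papss2 stood at 123 CPM (counts per 1000000 UMIs) in the former and 72.7 in the latter, and Hapln1 at 1018 and 607. The 415 barcodes with no Postn UMI that met all else had 5.39 CPM of Papss2, and the 41 members with 10 or more Postn UMIs had 189. These 2 genes were thus lower at 4 Postn UMIs, where barcodes rich in epicardium genes were more frequent, and higher deep inside the limit. The part of that mix in the difference was not tested.

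Members occurred in all 6 libraries, but unevenly. Libraries 1 to 6 held 23, 25, 26, 11, 11 and 10 of them among 6441, 6000, 4903, 5678, 7136 and 5804 passing barcodes. As a share, the lowest library had 0.154% (exact Clopper-Pearson 95% interval 0.0770 to 0.276%) and the highest 0.530% (0.347 to 0.776%), with 0.295% (0.241 to 0.356%) over all. Libraries 1 to 3 each had 0.357% or more and libraries 4 to 6 each 0.194% or less. The interval of library 3 lay above those of libraries 4, 5 and 6, while the intervals of libraries 1 and 2 overlapped all 3 of them. These intervals cover counting error alone and are no test of a difference between libraries. Set against endocardial cells, defined as barcodes with at least 2 UMIs of Pecam1 and 4 of Nfatc1 plus Npr3 (1641 in all), there were 4.75, 6.89, 19.55, 6.36, 4.42 and 4.18 members per 100. Library 3 stood apart on this measure: it had the fewest endocardial cells, 133, beside the most members. Member depth ran from 10895 to 102584 UMIs with medians of 31067 to 37980 by library, beside 30533 to 35634 for all passing barcodes. Xist, the RNA of the inactive X chromosome, was at 331 CPM in the members of library 1 and 0 in those of the other 5 libraries; over all passing barcodes it was at 383 CPM in library 1 and at most 0.342 in the others. Of the members, 9 carried a barcode sequence that occurs in more than 1 library, as did 2890 of all passing barcodes.

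**Figure D1:**
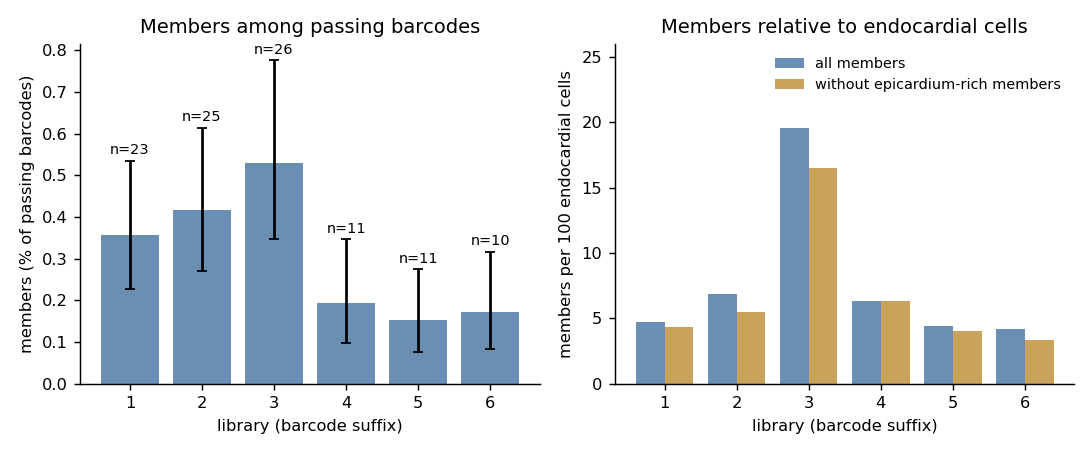
Left, members as a percent of passing barcodes in each library (bars) with exact 95% binomial intervals (lines) and the number of members. Right, members per 100 endocardial cells, for all 106 members (blue) and for the 92 that remain without those rich in epicardium genes (ochre); library 3 has the highest value in both panels.

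The label was compared with cushion markers that the rule did not use, and it held for most members but not for all. Those markers were listed with earlier results of these data known, so the comparison is not independent. A group of 14 of the 106 members (13.2%, Clopper-Pearson 7.41 to 21.2%) carried between 14 and 255 UMIs of the epicardium genes Wt1, Upk3b, Upk1b, Tbx18 and Lrrn4, while the other 92 carried at most 3 and 81 of those carried none. The epicardium is the outer mesothelial covering of the heart. The limit of 10 UMIs that separates the 2 sets was chosen after the values were seen. In the 14, Upk3b, a mesothelial uroplakin, stood at 649 CPM against 0.299 in the 92, and Wt1, a factor of the epicardium, at 368 against 2.09. Both genes define the split, so this contrast only describes it. Papss2, which makes the sulfate donor for matrix sugars, had no UMI in any of the 14 and 188 CPM in the 92, at least 52.7-fold lower when 3 UMIs are taken as the limit. Pdlim3, a PDZ and LIM domain protein of the actin cytoskeleton, stood at 7.14 against 1197 CPM. Msx1 and Prrx1, homeobox factors of mesenchyme, had no UMI in the 14 and 125 and 75.1 CPM in the 92.

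Other cushion genes were shared by both sets to different degrees. Hapln1, which links hyaluronan to versican, stood at 581 CPM in the 14 and 1605 in the 92, Vcan (versican itself) at 193 and 1452, and Fbln2 (fibulin 2) at 238 and 194. Of the genes outside the rule and the 5 epicardium genes, 935 of 9410 tested (9.94%) were at least 2-fold higher in the 14 and 904 (9.61%) at least 2-fold lower. Krt7, a keratin of simple epithelia, and Apela, a peptide ligand of the apelin receptor, were each at 125 CPM in the 14 with no UMI in the 92, at least 139-fold higher. Dcn, the matrix proteoglycan decorin, stood at 348 against 2.09 CPM, Erbb4 at 972 against 116, and the atrial myosin light chain Myl7 at 659 against 16.4. The 14 came from libraries 1, 2, 3, 5 and 6 (2, 5, 4, 1 and 2), with none in library 4. Their median depth was 64924 UMIs against 34278 in the 92, and Postn, for which the rule asks an absolute count, stood at 127 CPM in the former and 278 in the latter. By the rule alone they are members, and they stay in the values below unless a value is given as without the 14. Among the 92, 4 members had no UMI of Hapln1 or Gata4 and had UMIs of Foxf1, a factor of foregut mesenchyme. Of these, 1 also had 52 UMIs of Pf4, a megakaryocyte chemokine. A further member had no UMI of Hapln1, 6 of Foxf1 and 4 of Gata4. Some members with Hapln1 UMIs had between 1 and 6 of Foxf1. All of these stay in all values, those without the 14 included.

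**Figure D2:**
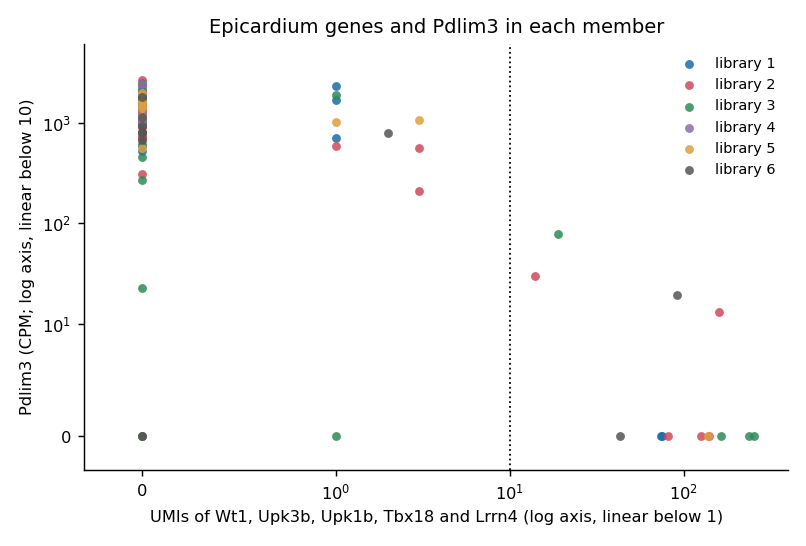
Each point is 1 of the 106 members, coloured by library. The horizontal axis is the sum of UMIs of 5 epicardium genes and the vertical axis the level of Pdlim3 in CPM (both logarithmic, linear near 0); the 14 members right of the dotted line at 10 UMIs have little or no Pdlim3, and most members left of it lie far above them.

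Against all other passing barcodes, 752 of 9380 genes tested (8.02%) were at least 2-fold higher in the members and 457 (4.87%) at least 2-fold lower. A gene was tested with 10 CPM or more in either set, and the 9 rule genes were left out. Counted from 1 CPM, more genes were lower than higher, as given at the end. The median gene had a ratio of 1.04. Without the 14 epicardium-rich members, 638 of the 752 and 424 of the 457 were still past 2-fold. These calls describe cells that were selected on related genes, so they carry no test. Intervals in brackets are 95% and reflect counting error alone, so the variation between embryos lies outside them.

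The 12 genes with the highest ratios were of several kinds. Papss2 stood at 150.3 CPM in the members (139 to 163) and 2.78 elsewhere, 54.1-fold higher (49.6 to 58.9). By library its level ran from 73.7 to 236 CPM in the members with a median of 140.4, and it was above the other barcodes in all 6. Thinned to 10000 UMIs per cell, 48.1% of the members had a Papss2 UMI (68.9% before thinning), against 2.94% of endocardial cells and 0.201% of red blood cell precursors, which should lack it. The members' share was thus above that of the red cells, which were the deeper set: median depth was 35985 UMIs in members, 40465 in endocardial cells and 65593 in the red cells.

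Igfbp7, a secreted protein that binds insulin-like growth factors, stood at 308 against 9.697 CPM (31.7-fold, 29.9 to 33.6), with 211 to 419 CPM over the libraries. Col9a3, a chain of the cartilage collagen IX, stood at 126 against 4.24 (29.8-fold, 27.2 to 32.6). Pdlim3 stood at 958 against 45.4 (21.1-fold), and without the 14 epicardium-rich members at 1197. Hapln1 stood at 1399 CPM (13.3-fold, 12.97 to 13.7 above the other barcodes) and ran from 1010 to 2145 over the libraries. The reticulon Rtn1 was 17.99-fold higher, the cyclic nucleotide phosphodiesterases Pde1a and Pde7b 16.5-fold and 12-fold, and the carbonic anhydrase Car3 14.1-fold. The unnamed transcript Gm35533 was 12.9-fold higher, the sialyltransferase St6galnac5 11.7-fold, and the secreted collagen-triple-helix protein Cthrc1 11.4-fold. All of these were above the other barcodes in each of the 6 libraries. Car3 was the least widely spread of the 12, with a UMI in 54 members, against 100 for Cthrc1.

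The genes lowest in the members were mostly globins. Among those at 50 CPM or more elsewhere, the 8 with the lowest ratio were 6 globins, Cox6a2 (a muscle form of a cytochrome oxidase subunit) and Mt2 (a metallothionein). Hbb-bh1 stood at 8.84 CPM in the members against 3314 elsewhere, 375-fold lower, and Hbb-y at 40.6 against 13357. Cox6a2 and Mt2 each had 1 UMI in the members in all.

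The cushion marker list outside the rule was high in the members. It was set with earlier results of these data known, so it is no independent check of the label. Of its 19 genes, all were tested, 14 were at least 2-fold higher than in other barcodes and 2 at least 2-fold lower, with a median ratio of 3.61; without the 14 epicardium-rich members the counts were 14 and 0. Over all genes, 8.02% were at least 2-fold higher and 4.87% lower. Vcan stood at 1199 against 216 CPM (5.56-fold, 5.404 to 5.71) and ran from 825 to 1757 by library. Has2, the enzyme that makes hyaluronan, stood at 134 against 21.3 (6.29-fold) and ran from 82.8 to 233. Snai2, a repressor of cell adhesion genes in the transition to mesenchyme, was 3.61-fold higher and Fbln2 9.55-fold. Prrx1 stood at 60 against 122 CPM, 2.03-fold lower, and below the other barcodes in all 6 libraries. Tgfbr3, the TGF-beta co-receptor betaglycan, was 2.42-fold lower. Without the 14, Prrx1 and Tgfbr3 were at ratios of 0.617 and 0.517, short of 2-fold. On the mm10 build (GRCm38, GENCODE M21), Hapln1 lies on chromosome 13 from 89539796 to 89611652 on the plus strand and Vcan on the same chromosome from 89655312 to 89742509 on the minus strand, so these 2 partners in the hyaluronan matrix are encoded 43.7 kb apart. Papss2 lies on chromosome 19 from 32595790 to 32667187 and Postn on chromosome 3 from 54361109 to 54391037.

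Matrix genes were mostly high. Of 34 tested, 21 were at least 2-fold higher and 2 lower against other barcodes, with a median ratio of 2.65 beside 1.04 over all genes; without the 14 epicardium-rich members the counts were 22 and 4. The shares over all genes were 8.02% higher and 4.87% lower. Sparc, a collagen-binding matrix glycoprotein, stood at 1316 against 293 CPM and had a UMI in every member. Loxl2, a lysyl oxidase that cross-links collagen, stood at 254 against 61.1, and its libraries lay between 208 and 316. The fibrillar collagens differed among themselves: Col1a1, Col3a1 and Col5a2 were 2.73-fold, 2.75-fold and 2.15-fold higher, and Col1a2 and Col5a1 were at ratios of 1.46 and 1.93, short of 2-fold. The basement membrane chain Col4a1 was at a ratio of 1.23. Eln (elastin) and the collagen cross-linker Lox were under 10 CPM in both sets and were not tested. The metalloprotease Adamts19 and the fibrillar collagen of cartilage, Col2a1, were lower, at 7.17 against 30.6 and 20.8 against 56.9 CPM. The level of Dcn rested on the epicardium-rich members, since it was 71.5 CPM in all members and 2.09 without them.

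Among the regulators of mesenchyme, 10 of 23 tested were at least 2-fold higher and 1 lower, beside 8.02% and 4.87% over all genes. The 1 lower was Prrx1, which was short of 2-fold without the 14. Vim, the intermediate filament vimentin, stood at 2975 against 688 CPM, and Snai1 at 48.5 against 20.4. Id1, Id2 and Id3, inhibitors of bHLH factors that respond to BMP signals, stood at 584, 573 and 1248 CPM, 2.05-fold, 2.19-fold and 2.46-fold higher, and had UMIs in all 106 members. Sox11 was lower at a ratio of 0.511. Sox5 and Sox6, partners of Sox9 in cartilage, stood at 519 against 113 CPM and 447 against 65.3, and the lowest library of Sox5 was at 433. The other genes of the cartilage and sclerotome list were mixed: Col9a1 was 1.94-fold higher, Pax1 had no UMI and Pax9 had 1.

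The cardiac regulators differed in both directions. Of 19 tested, 6 were at least 2-fold higher and 7 lower (5 and 7 without the 14), with a median ratio of 0.727. Over all genes, 8.02% were higher and 4.87% lower, with a median ratio of 1.04. Gata4 and Gata6, zinc finger factors of heart and cushion, stood at 272 against 56.9 and 239.5 against 60.2 CPM, and Gata4 ran from 229 to 329 by library. Gata5 and Hand2 were 2.69-fold and 2.18-fold higher. Nkx2-5, the factor of heart muscle precursors, stood at 1.43 against 24.9, and Irx5 at 1.67 against 20.7. Meis2 was at a ratio of 1.38. Tbx18 was 2.58-fold higher over all members, and at a ratio of 0.0712 without the 14 epicardium-rich ones.

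Signalling genes of the TGF-beta and BMP families were next. Of 23 tested, 10 were at least 2-fold higher and 5 lower against other barcodes (10 and 4 without the 14). The shares over all genes were 8.02% higher and 4.87% lower. Among the ligands, Tgfb2, the TGF-beta form of the cushions, stood at 201 against 69.7 CPM (2.88-fold, 2.69 to 3.09), and the members of the 6 libraries lay between 159 and 251. Bmp6 was 5.38-fold and Bmp2 2.37-fold higher (Bmp2 1.73-fold without the 14 epicardium-rich members), while Bmp4, Bmp5 and Bmp7 were 2.97-fold, 4.11-fold and 4.45-fold lower. Among the receptors, Bmpr1a and Tgfbr1 were at ratios of 1.06 and 0.951, Tgfbr2 was 2.06-fold higher and Bmpr1b 5.85-fold lower. The inhibitory Smads, which are induced by the pathway and dampen it, were high: Smad6 stood at 217 against 41 CPM and Smad7 at 144 against 50.4. Ltbp1, which tethers latent TGF-beta in the matrix, stood at 361 against 79.2 (4.55-fold). Bmp10, a ligand of trabecular muscle, and Grem1, a BMP antagonist, had no UMI in any member.

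In the remaining pathways the counts are small, beside 8.02% higher and 4.87% lower over all genes. Of 7 Notch genes tested, 2 were higher and none lower: the receptor Notch1 at 33.7 against 14.1 CPM and the target Hey2 at 13.2 against 5.41. Without the 14 epicardium-rich members Hey2 was at 10.2, short of 2-fold, and the ligand Jag1 was past 2-fold lower at 8.97 against 22.04. Hes1 was at a ratio of 1.17, Jag1 at 0.651 and Notch3 at 0.799. Of 19 Wnt genes, 5 were higher and 4 lower (4 and 5 without the 14). The secreted Wnt modulators Dkk3 and Dkk1 were 3.98-fold and 2.197-fold higher and the Wnt potentiator Rspo2 and the ligand Wnt2 7.93-fold and 4.73-fold lower. Of 17 genes of the FGF, PDGF, EGF and neuregulin families, 4 were higher and 3 lower, and without the 14 it was 3 and 5. Erbb3, a neuregulin receptor needed for cushion mesenchyme, stood at 36.6 against 6.29 CPM (5.81-fold, 4.92 to 6.82), with libraries from 26.4 to 65.8. Pdgfra was 2.302-fold and Hbegf 2.55-fold higher. Fgf8 had no UMI, Fgf10 stood at 1.43 against 11.6 CPM, and the receptor Fgfr2 was at a ratio of 1.34. Erbb4 stood at 288 against 234 CPM over all members and at 116, 0.496 times the other barcodes, without the epicardium-rich ones. Of 13 semaphorin, plexin and chemokine genes, 3 were higher and 3 lower (3 and 5 without the 14), with the plexin Plxna4 3.79-fold and the chemokine scavenger Ackr3 2.74-fold higher, and the endothelin receptor Ednra and the semaphorin Sema3c 5.54-fold and 3.98-fold lower.

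Endocardial cells are the lining from which much of the cushion mesenchyme derives. Against them, 776 of 9315 genes tested (8.33%) were at least 2-fold higher in the members and 554 (5.95%) at least 2-fold lower, with Pecam1, Nfatc1 and Npr3 left out beside the rule genes. Without the 14 epicardium-rich members, 637 of the 776 and 516 of the 554 were still past 2-fold. Of the 10 genes with the highest ratios, Upk1b, Upk3b, Wt1, Dcn and Tbx18 rested on those 14: Upk1b was 63.6-fold higher with them and had no UMI in the other 92 members, and Tbx18 was 32.1-fold higher with them and at a ratio of 0.887 without them. All of these genes but Dcn were used to define the 14, so their fall without the 14 follows from the split. These ratios also moved under other settings. Without the barcodes of highest doublet score Upk1b, Upk3b, Wt1, Dcn and Tbx18 were 196.9, 400, 210.3, 143.5 and 147-fold higher, and without shared barcodes 163, 104.2, 73.2, 59.3 and 78.2-fold. With Postn at 10 UMIs or more they were 15.7, 26.8, 23.8, 14.3 and 10.3-fold higher. When barcodes were thinned to 10000 UMIs before the rule, the ratios were 0, 0, 13.6, 6.81 and 0.

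The other 5 were high in the 92 as well. Car3 stood at 124 CPM in the members and 1.12 in endocardial cells (110.5-fold, 87.6 to 141; 121-fold without the 14, and 202.6-fold without the barcodes of highest doublet score). Papss2 stood at 150.3 against 4.58 (32.8-fold, 28.7 to 37.6). Ddr1, a collagen receptor, was 31.3-fold higher (17.8-fold without the 14, 61.9-fold without the barcodes of highest doublet score), Col9a3 29-fold and Rtn1 26.1-fold. When barcodes were thinned to 10000 UMIs before the rule, Papss2, Col9a3 and Rtn1 were 75.4, 104.2 and 123.7-fold higher. The matrix genes differed from endocardial cells over a wide range of ratios. Hapln1 differed little, at 1399 against 934 CPM (1.498-fold, 1.46 to 1.54). Vcan stood at 1199 against 159.6 (7.51-fold), Cthrc1 at 462 against 24.6 (18.8-fold), Has2 at 134 against 32.9 (4.08-fold) and Col1a1 at 87.2 against 4.89 (17.9-fold). The basement membrane chains Col4a1 and Col4a2 were 3.66-fold and 3.103-fold lower in the members. Over the list, 17 of 34 matrix genes were at least 2-fold higher and 2 lower (16 and 3 without the 14). The shares over all genes were 8.33% and 5.95%. Among regulators, Meox1 and Prrx2 were 13.3-fold and 9.02-fold higher and Mef2c 2.31-fold lower, while Gata4 and the metalloprotease Mmp2 were at ratios of 1.36 and 1.22. The T-box factor Tbx3 was 5.84-fold higher and the nuclear receptor Nr2f2 2.41-fold lower. Foxc2, a forkhead factor, was at a ratio of 0.616.

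**Figure D3:**
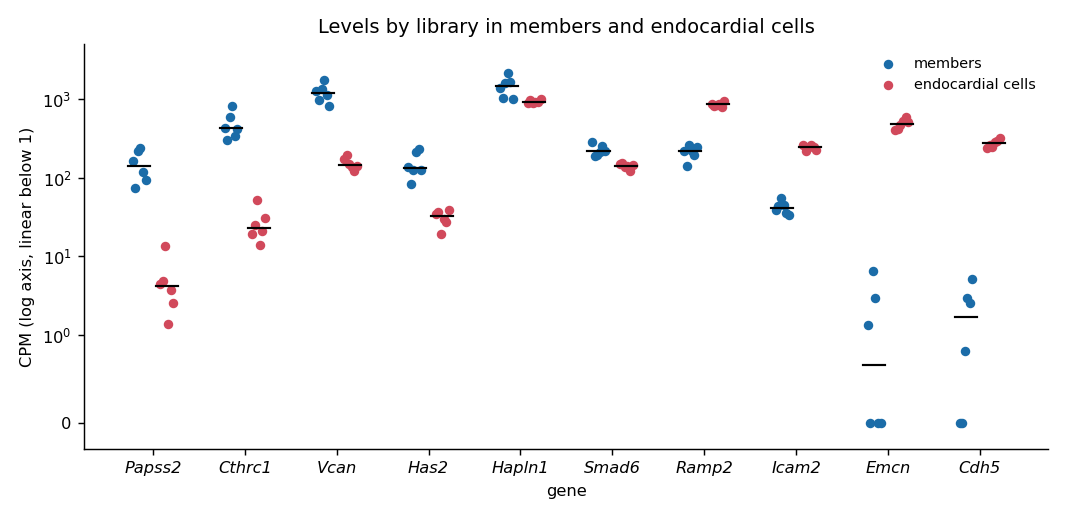
Points are the levels in CPM of 10 genes in the members (blue) and the endocardial cells (red) of each of the 6 libraries, and black lines are medians over libraries; the axis is logarithmic and linear below 1. Papss2, Cthrc1, Vcan and Has2 are higher in the members of every library, Ramp2 and Icam2 are lower but well above 0, and Emcn and Cdh5 are at or near 0 in the members.

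Endothelial genes were lower in the members than in endocardial cells, to very different degrees. All 16 genes of the list that were tested were at least 2-fold lower, with Pecam1, Nfatc1 and Npr3 not counted, with a median ratio of 0.0446. Over all genes, 5.95% were lower. The selection set Pecam1 low in the members and high in the endocardial cells. Lower levels of genes expressed with Pecam1 were thus partly built into the comparison. Junction and vessel genes were at or near 0. Cldn5, a tight junction protein, and Erg, an endothelial transcription factor, had no UMI in any member and stood at 66.5 and 51.2 CPM in endocardial cells, at least 92.8-fold and at least 71.4-fold lower. Cdh5, the cadherin of endothelial junctions, stood at 1.195 against 269 CPM, and the endothelial sialomucin Emcn at 2.39 against 469, a ratio of 0.0051 that was 0.00144 without library 3. The connexin Gja4, the adhesion protein Esam, the kelch protein Klhl4, the small GTPase Gimap6, the nitric oxide synthase Nos3 and the homeobox factor Irx5 completed the 10 lowest genes, at 0.717, 0.956, 1.67, 0.956, 0.717 and 1.67 CPM.

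Other endothelial genes were lower yet still present. Ramp2, a receptor partner for adrenomedullin, stood at 209.6 CPM in the members, 853 in endocardial cells and 76.2 in all other barcodes, and ran from 139 to 260.0 over the libraries. The adhesion protein Icam2 stood at 44.7, 243 and 19.1 CPM in the same order, the sialomucin Cd34 at 49.96, 165 and 16.8, and the angiopoietin receptor Tek at 40.6, 272 and 23.01. Each was above the other barcodes and below endocardial cells in all 6 libraries. The list as a whole did not lie above the other barcodes. Of 15 genes tested against them, 4 were at least 2-fold higher and 5 lower, with a median ratio of 0.979. Over all genes, 8.02% were higher and 4.87% lower. Kdr, Esam and Cdh5 were at ratios of 0.161, 0.092 and 0.0571 to the other barcodes. After thinning to 10000 UMIs, 76.4% of members had a Ramp2 UMI (88.7% before thinning), against 98.8% of endocardial cells and 2.01% of red cell precursors. For Icam2 the thinned shares were 34.9%, 82.8% and 0.469%, and for Cdh5 0.943%, 86.1% and 0.537%. Ramp2 and Icam2 thus stood above the red cell level. The thinned Cdh5 share rested on 1 of 106 members (Clopper-Pearson 0.0239 to 5.14%). Before thinning it was 4.72% in members and 1.47% in red cells, so it was not placed against that level. Thinning left out no member, 6 endocardial cells and 2 red cell precursors. Tek had a UMI after thinning in 57.1% of the 14 epicardium-rich members and 29.35% of the 92. Ramp2, Icam2 and Cd34 went the other way, at 14.3%, 0% and 0% of the 14. In the 92 they were at 85.9%, 40.2% and 39.1%.

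Signalling genes were also read against endocardial cells, where 8.33% of all genes were higher and 5.95% lower. Of the TGF-beta and BMP genes, 3 of 22 were at least 2-fold higher and 5 lower (4 and 5 without the 14): Bmp2 stood at 28.7 against 2.92 CPM, Tgfb2 at 201 against 64.5, Tgfbr3 at 12.4 against 242 and the endothelial receptor Acvrl1 at 1.91 against 18.4. Of 9 Notch genes, 1 was higher and 3 lower (1 and 4 without the 14). The receptor Notch2 stood at 66.7 against 21.9 CPM, Notch1 at 33.7 against 92.4, the ligand Dll4 at 0.478 against 18.4 and Notch4 at 3.35 against 16.3. Notch3 was at a ratio of 1.24. Of 15 Wnt genes, 11 were higher and 1 lower (13 and 2 without the 14). The Wnt potentiator Rspo1 was 16.6-fold higher, and 2.09-fold without the 14. The Wnt antagonist Sfrp1 was 7.67-fold and Dkk1 7.15-fold higher, and Wnt4 14.6-fold lower. The Wnt receptor Fzd2 and the Wnt effector Lef1 were 4.96-fold and 3.51-fold higher, and Wnt11 was at a ratio of 0.609. Of 16 growth factor genes, 10 were higher and 2 lower: Egfr and Erbb3 were 16.1-fold and 12.1-fold higher, and the ligands Nrg1 and Pdgfb 5.06-fold and 43.6-fold lower. Egfr depended on the epicardium-rich members, at 26.1 CPM with them and 3.89 without, still 2.4-fold above endocardial cells. Erbb3 stood at 42.5 CPM without them. Of 12 semaphorin and chemokine genes, 4 were higher and 2 lower, and without the 14 it was 2 and 3, with Sema3d 9.38-fold higher (a ratio of 1.23 without the 14), the chemokine Cxcl12 3.69-fold higher and the receptors Plxnd1 and Ednrb 11.7-fold and 8.09-fold lower. The receptor Nrp1 and the ligand Sema3a were at ratios of 0.501 and 0.939.

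The 98 barcodes that missed the rule only by 2 or more Pecam1 UMIs resembled the 92 members low in epicardium genes in most measured genes. Of 8984 genes tested, 61 (0.679%) were at least 2-fold higher in the 98 and 42 (0.467%) at least 2-fold lower. Papss2 stood at 183 CPM in the 98 and 188 in the 92. Emcn stood at 16.1 against 2.39, Cdh5 at 11.2 against 1.496 and Ramp2 at 347 against 259.9. The VEGF receptor Flt1 was 2.42-fold higher in the 98 (95% interval 1.84 to 3.21), and Heg1, a receptor of endocardial junctions, 2.601-fold. The ephrin receptor Epha3 was 2.02-fold lower and the secreted factor Ptn 1.97-fold. Of the 98, 14 also met the endocardial definition, and 1 was rich in epicardium genes. Of the 690 that missed only Postn, 213 (30.9%) were.

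Markers of the other cell types in the dissection were read across whole lists. Over all genes, 8.02% were at least 2-fold higher and 4.87% lower than in other barcodes. Crest regulators were low: of 12 tested, 11 were at least 2-fold lower than in other barcodes and 1 was higher. Tfap2b stood at 0.239 against 17.5 CPM, Barx1 at 3.35 against 65.8, and Foxd3 and Hoxd3 had no UMI. Hoxb3, Hoxb2 and Hoxa2 were at ratios of 0.0308, 0.1696 and 0.2499; Dlx genes were partly fixed by the rule. The 1 higher gene was Ets1, also an endothelial factor, at 77.2 against 35.3 with 136 in endocardial cells. Of 14 cardiomyocyte genes, 13 were lower and none higher, with Ttn (titin) at 2.39 against 396 CPM, the atrial peptide Nppa at 0.478 against 92.6 and Tnni3, the cardiac troponin I, at 0.717 against 135. The exception was Tnni1, the slow skeletal troponin I, at 433 against 375 and 187 in endocardial cells, with libraries from 281 to 743. The low cardiomyocyte levels were partly fixed by the rule's limit on Tnnt2. Against endocardial cells, 5 of 9 cardiomyocyte genes tested were at least 2-fold lower and 1 higher, beside 5.95% and 8.33% over all genes. All 6 second heart field and foregut mesenchyme genes tested were lower, with Isl1 at 19.1 against 65.6 and Tbx1 at 2.15 against 27.7. All 7 erythroid genes tested were lower, and their summed level over the libraries was 52.8 to 141 CPM against 30661 in other barcodes.

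The lists of other types below were mixed, beside 8.02% higher and 4.87% lower over all genes. Of 9 epicardium genes tested, 6 were at least 2-fold higher and none lower over all members. Without the 14 epicardium-rich members none was higher and 7 were lower. The 5 genes that define the 14 are on this list, so that change was partly fixed by the split. Outside those genes, Tcf21 stood at 89.2 CPM over all members and 29.3 over the 92, and Aldh1a2 at 18.4 and 2.09. The summed level of the list ran from 59.7 CPM in library 4, which had none of the 14, to 782 in library 3. Of 8 smooth muscle and mural genes, 3 were higher and 1 lower: Mcam, a cell adhesion molecule of vessel walls, stood at 51.6 against 6.9 CPM, the actin-binding protein Tagln at 644 against 268, and Myocd, the coactivator of smooth muscle genes, at 5.26 against 37.4. Myh11, the myosin of mature smooth muscle, had UMIs in 1 member. Of 5 epithelial genes tested, none was higher and 3 were lower (0 and 4 without the 14), partly fixed by the rule's limit on Epcam. The keratins Krt8 and Krt18 were at ratios of 1.47 and 0.9 with the 14 and 0.619 and 0.124 without them. Cldn7 stood at 0.717 CPM, and Cdh1, Cldn6, Krt5, Foxa2 and Shh had no UMI. The epithelial list summed to 1114 CPM in the 14 and 81.4 in the 92. No UMI was found for the macrophage genes C1qa, C1qb, Ptprc and Tyrobp. The megakaryocyte chemokine Pf4 had 58 UMIs in 5 members, 52 of them in 1 member. Of 3 neuron and glia genes tested, the beta-tubulin Tubb3 was higher at 163 against 34.5, Stmn2 was lower at 6.69 against 15.1 (a ratio of 0.535, short of 2-fold, without the 14), and Elavl4 was at a ratio of 0.556.

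**Figure D4:**
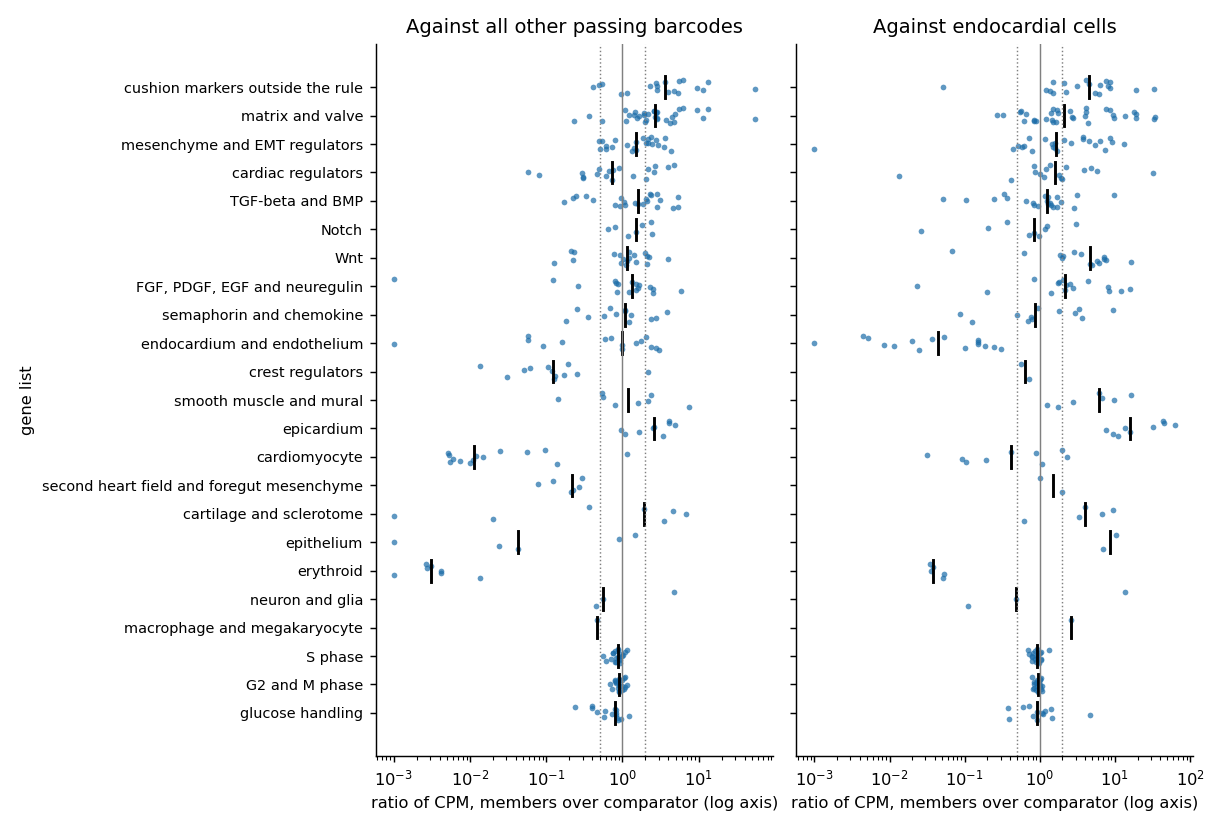
Each point is 1 tested gene of the list named at the left, at its ratio of CPM in the members to all other passing barcodes (left panel) or to endocardial cells (right panel), on a log axis; black bars are list medians, dotted lines mark 2-fold, and genes with no UMI in the members are drawn at the left edge. Cushion and matrix lists lie mostly right of 1, cardiomyocyte and erythroid lists far left in the left panel, and the endothelial list far left in the right panel.

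Cell cycle genes differed little. None of 20 S phase genes and none of 20 G2 and M phase genes was past 2-fold in either direction against either comparator, with median ratios of 0.871 and 0.9005 against other barcodes. Their ratios ran from 0.5601 (Rrm2) to 1.15 (Mcm4) in S phase and from 0.683 (Cenpa) to 1.15 (Cenpe) in G2 and M. The glucose list was read because the study varies maternal glycemia, which these libraries could not be split by. Of its 15 genes tested, 4 were at least 2-fold lower than in other barcodes and none higher, beside 4.87% lower and 8.02% higher over all genes. The glucose transporters Slc2a1 and Slc2a3 stood at 47.6 against 120.5 and 7.65 against 32.3 CPM, and the hexokinase Hk1 at 9.56 against 24.01. The glycolytic genes Ldha, Pkm and Pgk1 were at ratios of 0.814, 0.725 and 0.831. Against endocardial cells 1 was higher, the lactate dehydrogenase subunit Ldhb at 204 against 43.9, and 2 of 13 were lower, Hk1 and Txnip. Over all genes these shares were 8.33% and 5.95%.

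The members also varied among themselves. After thinning to 10000 UMIs, 325 of 3653 genes with a mean of at least 0.5 UMIs had a variance at least 2 times their mean within libraries (a Fano factor of 2 or more), and 257 of 3622 without the 14. The highest were Cdkn1c, an imprinted cell cycle inhibitor (21.9), the smooth muscle actin Acta2 (15.4), the nuclear RNA Malat1 (15.3), the guidance receptor Robo2 (14.3), Tagln (13.7), the actin-sequestering Tmsb4x (11.8), the lipid carrier Apoe (10.1) and Dlc1 (9.49).

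Since Acta2 and Tagln both appear there, the 92 members low in epicardium genes were ordered by their sum, an order chosen after the values were seen. It ran from 0 to 10147 CPM with a median of 428. The 23 highest members, all at 1470 CPM or more, were set beside the 23 lowest, all at 119 or less. Within 20% of the upper limit lay 8 members, and whether the order is a range or a division into types was not tested. Median depth was 37751 UMIs in the highest and 33666 in the lowest. Hapln1 stood at 847 CPM in the highest and 1975 in the lowest, 2.33-fold lower, and Vcan at 844 and 1779. Papss2 was 4.46-fold lower, Cthrc1 3.16-fold, Sox5 2.65-fold and Apoe 9.34-fold. In the other direction, Cdkn1c stood at 3279 against 636, and the G-protein regulator Rgs5, the homeobox gene Prrx2 and the imprinted RNA H19 were 3.89-fold, 3.699-fold and 3.23-fold higher. The proliferation genes Top2a and Mki67 were also higher there, 2.502-fold and 1.51-fold, and their part in the order was not tested. Postn, Has2 and Gata4 were at ratios of 1.01, 1.04 and 1.13.

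The order was not equally clear in every library. The Spearman correlation of Hapln1 with the sum was -0.505 over the 92 cells, -0.678 in library 1 (21 cells), -0.702 in library 2 (20) and -0.286 in library 3 (22). For Cdkn1c the values were 0.513, 0.735, 0.585 and -0.0278, and in library 3 most other genes named for this order were also near 0: Vcan at -0.141, Papss2 at -0.0661, Cthrc1 at -0.0437, Apoe at -0.136 and Prrx2 at 0.0301. Rgs5 had the opposite sign there, -0.209 against 0.505 over all. The order thus rests largely on libraries 1 and 2 among the 3 libraries read alone. These are descriptions over cells that share libraries, and they carry no p. Libraries 1 to 6 gave 6, 8, 2, 3, 3 and 1 of the 23 highest members and 2, 5, 10, 1, 2 and 3 of the 23 lowest. The 2 highest members from library 3 had 4 and 9 UMIs of Foxf1. Among its lowest, members with 6 and 5 UMIs of Foxf1 had none of Hapln1 or Papss2. In library 2, 1 of the highest had 14 UMIs of Foxf1 and 1 of the lowest had 6. The part of such members in the library values was not tested. Of the 92, 7 had no Hapln1 UMI and 19 no Papss2 UMI; 4 of the 7 also lacked Gata4, and all 4 had UMIs of Foxf1, a factor of foregut mesenchyme.

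**Figure D5:**
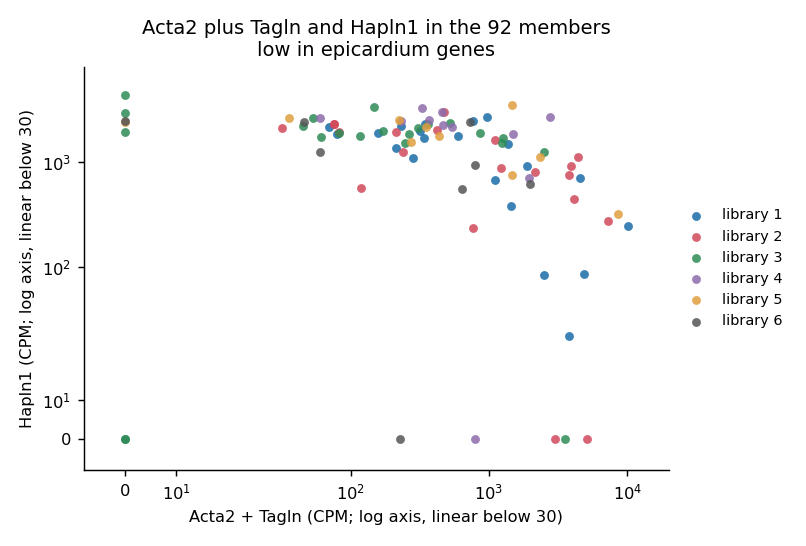
Each point is 1 of the 92 members low in epicardium genes, coloured by library, at its summed Acta2 and Tagln level (horizontal) and its Hapln1 level (vertical), both in CPM on logarithmic axes that are linear below 30. Members with a low sum mostly have over 1000 CPM of Hapln1, those above about 1000 spread down to 0, and 7 members lie at 0 Hapln1.

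Between the libraries with at least 20 members (1, 2 and 3), the genes that differed most were Xist, Actc1, Pde4b, Myl7, Pkdcc and Slit3. The cardiac actin Actc1 stood at 138, 126 and 17.3 CPM in libraries 1, 2 and 3, and the phosphodiesterase Pde4b at 64.9, 148 and 19.8. Myl7 stood at 39.8, 270.1 and 184 CPM over all members and at 16.4 over the 92, with 2, 5 and 4 of the epicardium-rich members in these libraries. The secreted kinase Pkdcc and the guidance ligand Slit3 were highest in library 2, at 125 and 206 CPM, and lowest of the 3 in library 1, at 18.6 and 33.1. Against this spread, the summed cushion list outside the rule ran from 3802 CPM in library 6 to 6750 in library 4, with 956 in other barcodes, so the members of every library lay above the other barcodes.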

How the data were processed

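Single-cell RNA libraries of 6 samples were made with a 10x Genomics droplet kit, per the labels' protocols (the descriptions speak of a chromatin assay, whereas the kit, the titles and the source field are those of RNA). The authors deposited 1 matrix of raw UMI counts; per the file headers it came from Cell Ranger 5.0.0. The submitters' processing notes also name mm10 and Seurat 4. No step that corrects free RNA or removes doublets is given in the sources used here. Library totals were 200462921 to 248426458 UMIs. No suffix could be tied to a sample, so the planned edgeR test of streptozotocin against vehicle was not run.

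UMIs were summed over cells and divided by total UMIs (CPM), and a gene was called at 2-fold with 10 CPM or more in either group. Share intervals are exact Clopper-Pearson, level intervals exact Poisson and ratio intervals binomial, at 95%; PCR and free RNA are not covered, and a count of 0 was bounded by 3 counts over the group. Doublets were kept, and Scrublet (scanpy 1.11.5) at 0.8% per 1000 barcodes was an alternative. The 2-fold calls were also run on simulated pooled counts with known changes. That simulation had no variation between cells or libraries and no selection of members, so it does not cover these. Python 3.11.15, numpy 2.4.6, scipy 1.17.1 and pandas 2.3.3 were used. Red cell precursors were barcodes with 1000 or more erythroid UMIs.

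Members, lists and tests were chosen with earlier results of these data known. Named genes are the 12 highest and 8 lowest ratios against other barcodes and the 10 and 10 against endocardial cells, at 50 CPM or more and in the same direction in each library with 20 members or more; the 3 highest levels and 2 highest and lowest ratios of each list (for the cell cycle, erythroid, macrophage and some other lists only part of these is printed, the rest standing in the counts); the 8 highest Fano factors; and the 6 largest spreads between those libraries. Other genes named, and the epicardium-rich set, the Pecam1 and Postn neighbours and the Acta2 and Tagln order, were chosen after values were seen. Coordinates are from GRCm38 with GENCODE M21.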

Additional observations from a re-analysis of the deposited data

Results flagged for a closer look

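Of 14 values checked over the 6 libraries, 2 had a library that lay far from the rest, and chance alone sets about 1 in 20 such groups apart. Library 3 had 19.55 members per 100 endocardial cells, against 4.18 to 6.89 in the other 5 libraries, and its gap to the nearest was 0.824 of the whole range, above Dixon's 95% critical value for 6 values. Without the epicardium-rich members it had 16.5. St6galnac5 stood at 179 CPM in the 11 members of library 4, and the gap was 0.633 of the range. The part of depth, dissection or treatment in either value was not tested.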

How the results depend on the processing

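The share of barcodes that are members, 0.295%, depends on the limits: it was 0.241% with at least 1000 genes and at most 20% mitochondrial UMIs, 0.114% with Postn at 10 UMIs or more, 0.517% at 3 or more, and 0.0801% when each barcode was thinned to 10000 UMIs first. That last rule kept 28 barcodes, of which 14 were members as reported and 1 was epicardium-rich. Thinning gave 1299 genes higher and 1261 lower against other barcodes, and 1206 and 1211 against endocardial cells. Counting genes from 1 CPM gave 1332 and 1790, and 1854 and 1287. Genes with a Fano factor of 2 or more numbered 116 after thinning to 5000 UMIs, in place of 325. Leaving out each library in turn gave shares of 0.258 to 0.330%, 706 to 797 higher and 446 to 510 lower genes against other barcodes, 760 to 796 and 541 to 573 against endocardial cells, and 287 to 332 variable genes. Of 639 values of 40 gene ratios under 16 settings, 633 kept their direction. These ratios were picked as the most extreme in the same data, so a change of direction was unlikely from the start. Counting from 1 CPM changes which genes are counted and cannot change a ratio. Car3 against endocardial cells had no ratio when thinned. In size, 90 of the 639 moved by over 1.5 times: 25 when thinned, 18 and 9 at the Postn limits of 10 and 3, 10 without the epicardium-rich members, 7 without the highest Scrublet scores, 6 without shared barcodes, 6 with the mean of CPM per cell, 2 with Tbx20 at 2 or more and 1, 2, 3 and 1 without libraries 1, 2, 3 and 5. Without the highest Scrublet scores, Car3 and Ddr1 were 202.6 and 61.9 times endocardial cells. The 6 that turned were ratios to endocardial cells of Upk3b, Tbx18 and Upk1b, each 0 when thinned, and 0.103, 0.888 and 0 without the epicardium-rich members, a setting added after seeing the data. The cause was not tested for the thinning. No paired analysis was possible because barcode suffixes could not be tied to samples; the edgeR, DESeq2 and replicate block fits were not run. With 10 to 26 members per library, low genes rest on few UMIs.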
